A study of Mus musculus with 6 samples.

Results

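The genes described here are 88 genes that RAW264.7 macrophages held at a faint level in culture and held at a higher level after culture in scaffold extract. They were chosen from the 345 genes of the deposited table by 4 conditions. The gene carried a name, its mean over the G scaffold libraries was above its mean over the Control libraries, its Control mean was above 0, and the lowest of its 6 values was below 10 normalized counts. The cut took in 104 genes, of which 16 that belong to other named gene groups (among them Fosb, Ccl5, Isg15 and Nqo1) were set apart by name, and 88 remained as members. Direction and level were thus used to choose the members, so both are given as a description. Where calls of the fits across all listed genes are counted below, they describe the members and do not test them. Just inside the cut lay Arl4d, Aplp1 and Ggt7, with lowest values of 9.94, 9.55 and 9.55 normalized counts. Just outside it lay Cyb561, Gls2 and 4930455G09Rik, with 10.5, 10.5 and 10.8.

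All 6 libraries came from RAW264.7, a cell line of mouse macrophages. The Control group held 3 libraries of cells kept without extract, and the G scaffold group held 3 libraries of cells kept for 48 h in extract of a degradable Zn-0.8Li Gyroid scaffold, diluted 5-fold. The extract carries both zinc and lithium, so the parts played by the 2 metals cannot be told apart. The labels do not say that the libraries came from separate cultures, so the spread between them may be technical. In bulk RNA, a change in the share of cells that express a gene and a change in the amount of RNA per cell cannot be told apart.

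Values are normalized counts, which are reads per gene divided by 1 size factor per library, and 1 read was worth between 0.955 and 1.08 normalized counts. Over the listed genes the libraries held between 88836 and 156029 reads, of which the members held between 399 and 448 in each Control library and between 3212 and 3228 in each G scaffold library. The members' share of the listed reads was therefore 0.418% to 0.453% per Control library and 2.07% to 2.14% per G scaffold library. The table holds only the listed genes, so these sums do not give the full depth of a library. Of 18 macrophage markers on a list, the table names 2 (both higher in the G scaffold group), and it names none of the neutrophil, mast cell, T and B cell or muscle markers. The fibroblast, endothelial, epithelial and neuron lists have 1 listed gene each, all higher. Since the table holds only genes that the authors called, an unlisted marker has no value here.

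A macrophage keeps many genes close to silent until a signal reaches it. Growth factor ligands such as heparin-binding EGF-like growth factor act through surface receptors on kinase cascades. Those cascades switch on both the ligand genes and the genes of their own inhibitors, among them dual-specificity phosphatases. Inhibitory SMADs restrain TGF-beta signalling, and SOCS proteins restrain cytokine receptors. Macrophages are also known for matrix proteases, scavenger receptors and lipid-handling enzymes, while several of the genes below are better known from neurons, muscle, germ cells or ciliated cells.

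All 88 members were past an adjusted p-value of 0.05 and a log2 fold change of 1 in the limma fit over the 345 genes. In that fit 82.6% of all listed genes were past the same thresholds in this direction, and the direction was part of the choice, so nothing is read from the count. In all 88 members the 3 G scaffold libraries lay above the 3 Control libraries, which holds for 82.9% of the listed genes. Control means ran from 0.318 to 17.0 normalized counts, with a median of 3.14, and G scaffold means ran from 6.84 to 207, with a median of 26.3. For comparison, the 107 named and higher genes whose 6 libraries all reached the cut had median means of 66.8 and 278 normalized counts. The edgeR and DESeq2 fits to the recovered reads also called 88 of the 88, against 83.2% of the listed genes with either tool. The median log2 fold change, on the log2(normalized count + 1) scale, was 2.72 over the members and 1.87 over all listed genes. The members are higher by choice and the listed genes include 58 lower ones, so nothing is read from the difference. These values rest on the authors' size factors. With TMM factors taken over the listed genes, the medians were 1.70 and 0.48, and 51 members were called, against 39.1% of the listed genes. No member fell below 0 under either scaling.

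**Figure D1:**
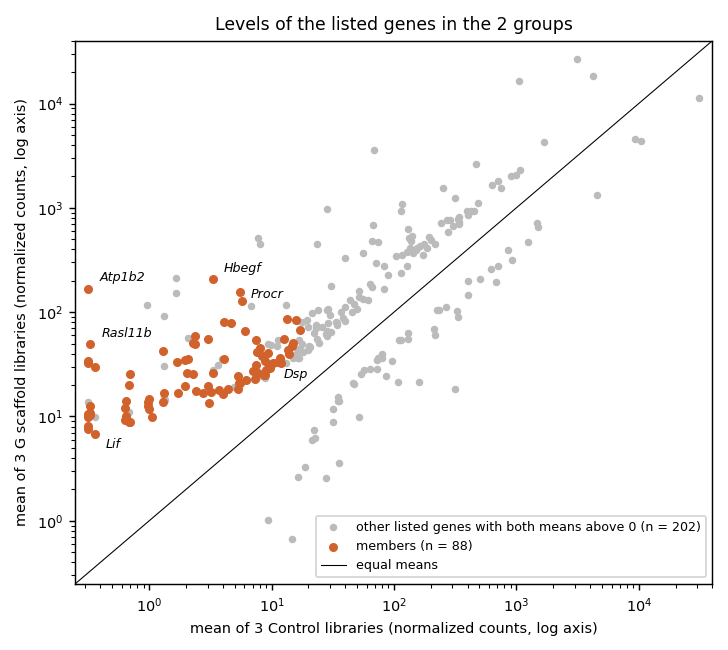
Each point is 1 listed gene, with its mean over the 3 Control libraries on the x axis and its mean over the 3 G scaffold libraries on the y axis (normalized counts, both axes logarithmic). The 88 members (orange) lie at Control means of 17.0 or less and above the line of equal means, beside 202 other listed genes (grey). Listed genes at a mean of 0 in a group cannot be drawn on these axes.

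Few reads stood behind the Control values. Over the 3 Control libraries together a member had between 1 and 50 reads, with a median of 9.50, against 21 to 630 reads in the G scaffold group. No member was at 0 in a G scaffold library, while 34 members were at 0 in at least 1 Control library, 18 of them in 1 library and 16 in 2. In 35 members every Control library had at most 3 reads. Changes are therefore given as the ratio of group means with an exact 95% interval for counting error, which leaves out any further spread between libraries. The ratio lay between 2.76 for Smad7 and 528 for Atp1b2, with a median of 9.83. It was below 3 in 6 members, from 3 to 10 in 39 and at 10 or more in 43. In the 26 members with 1 to 3 Control reads in all, the interval spans more than 1 order of magnitude, so these ratios are known only roughly.

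**Figure D2:**
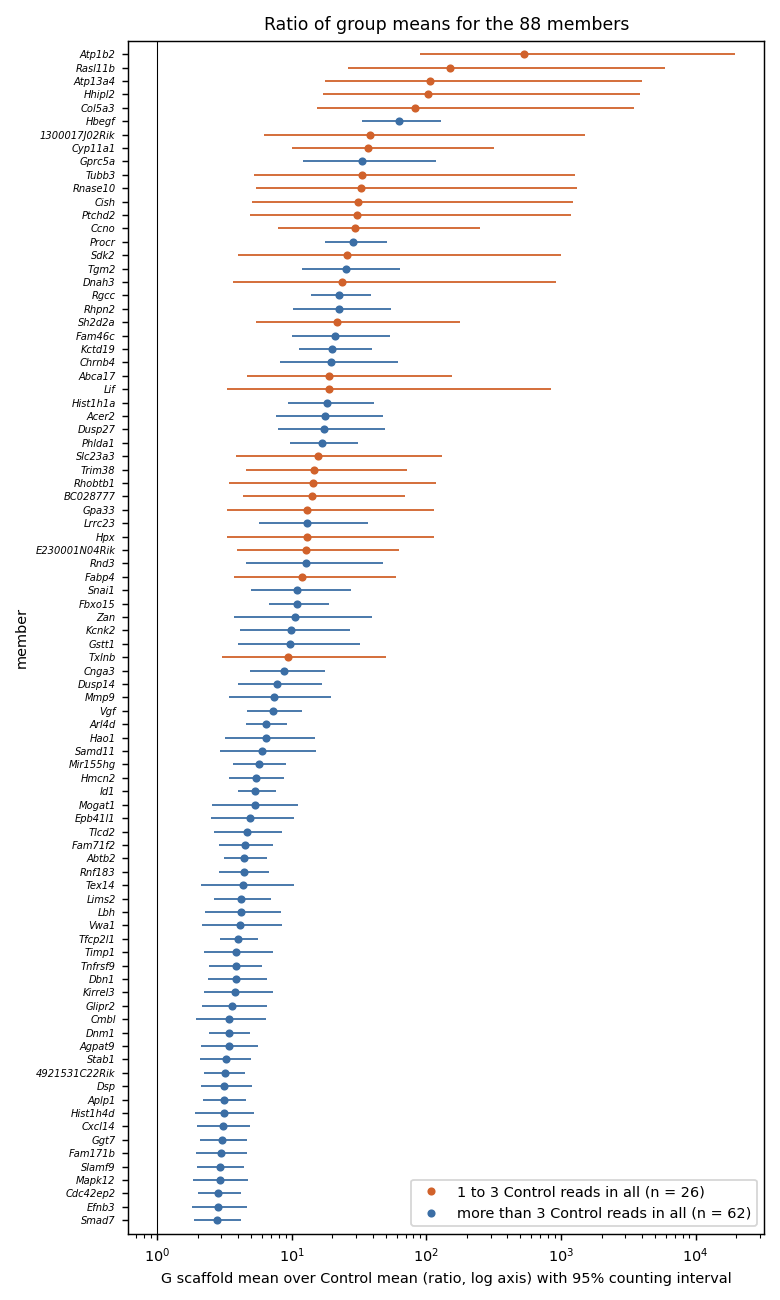
The ratio of the G scaffold mean to the Control mean (points, log axis) with its exact 95% counting interval (lines) is drawn for each of the 88 members. The intervals of the 26 members with 1 to 3 Control reads (orange) are the widest.

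The member with the highest level was Hbegf, which encodes heparin-binding EGF-like growth factor, a ligand of the EGF receptor. The Control libraries of Hbegf had 1.99, 2.16 and 5.73 normalized counts, and the G scaffold libraries had 204, 193 and 223. Its 3 G scaffold libraries stood close together, and each was far above the highest Control library. Its mean rose from 3.29 ± 2.11 to 207 ± 15.3 (normalized counts ± SD, n = 3 here and for all group means), a ratio of 62.7 (95% counting interval 33.2 to 129). Of the other ligand genes, Vgf, the precursor of several neuropeptides, had 5.96, 9.74 and 6.69 normalized counts in Control and 55.4, 62.7 and 43.1 in the G scaffold libraries. Cxcl14, a chemokine, had 6.96, 9.74 and 10.5 in Control and 22.2, 41.5 and 19.6 after extract, with G scaffold replicate 2 well above the other two. Efnb3, an ephrin that stays in the membrane and binds Eph receptors, had the lowest ratio of the ligands, at 2.82 (95% counting interval 1.81 to 4.64). Lif, a cytokine that signals through JAK and STAT proteins, had a single read in the Control group and 5.04, 12.5 and 2.94 normalized counts in the G scaffold libraries. Its lowest G scaffold library thus held 3 reads.

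Among the surface receptors and adhesion molecules, Procr stood highest. It encodes the endothelial protein C receptor, which binds protein C and factors of coagulation. The Control libraries of Procr had 0.994, 9.74 and 5.73 normalized counts, and the G scaffold libraries had 164, 169.8 and 131. The spread of its Control libraries, as chi-square over degrees of freedom, was 3.45, where counting error alone gives about 1, but the groups stayed far apart, with a ratio of 28.3 (95% counting interval 17.6 to 50.9). Gprc5a, an orphan G protein-coupled receptor induced by retinoic acid, had 0.994, 0 and 2.87 normalized counts in Control and 38.3, 42.5 and 47.0 in the G scaffold libraries. This was a ratio of 33.1 (95% counting interval 12.1 to 118), the highest of the group. Tnfrsf9, the costimulatory receptor also called 4-1BB, rose from 8.84 ± 5.78 to 34.2 ± 4.78 normalized counts, and its Control replicate 2 stood at 2.16 beside 11.9 and 12.4. The scavenger receptor gene Stab1 had 8.94, 4.33 and 15.3 in Control and 31.3, 33.8 and 27.4 in the G scaffold libraries, and Slamf9, of the SLAM family of immune receptors, had 7.95, 9.74 and 16.2 in Control and 26.2, 43.4 and 30.3 after extract.

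The remaining genes of this group encode adhesion molecules better known from other tissues. Aplp1, a relative of the amyloid precursor protein, had 20.9, 10.8 and 9.55 normalized counts in Control and 50.4, 39.6 and 40.1 in the G scaffold libraries. Dsp, which encodes the desmosomal protein desmoplakin, had 13.9, 12.99 and 3.82 in Control and 20.2, 40.5 and 36.2 after extract. Its chi-square over degrees of freedom was 3.15 among the Control and 3.57 among the G scaffold libraries, and the gene was the only member to lose its limma call when a library was left out. The call was lost without G scaffold replicate 2 and without G scaffold replicate 3, where its log2 fold change was 1.49 and 1.56, against 1.67 with all libraries. Kirrel3, of the immunoglobulin superfamily, had a ratio of 3.77 (95% counting interval 2.23 to 7.24), while Sdk2 and Gpa33, with 1 and 2 reads in all of Control, reached only 8.17 ± 1.88 and 8.86 ± 1.75 normalized counts.

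Genes of channels, pumps and transporters had a median Control mean of only 0.650 normalized counts. Atp1b2 encodes a beta subunit of the sodium-potassium pump. The Control libraries of Atp1b2 had 0, 0 and 0.955 normalized counts, and the G scaffold libraries had 194, 138 and 173. The only Control read fell in replicate 3, and the ratio of 528 has an interval of 89.3 to 19778. Atp13a4, a P-type ATPase gene, also had 1 Control read, with 32.3, 30.9 and 38.2 normalized counts in the G scaffold libraries. Cnga3, a subunit of the cyclic nucleotide-gated channel of cone photoreceptors, had 0.994, 6.49 and 4.78 in Control and 40.3, 37.6 and 29.4 in the G scaffold libraries. Chrnb4, a subunit of nicotinic acetylcholine receptors, had 0.994, 2.16 and 1.91 in Control and 41.3, 30.9 and 27.4 after extract. Kcnk2, which encodes a background potassium channel, had 3.97, 0 and 1.91 in Control and 23.2, 18.3 and 16.6 after extract. The groups of these 3 channel genes were separated by at least 12.7 normalized counts. Abca17, an ABC transporter gene, and Slc23a3, of the ascorbate transporter family, reached 12.1 ± 3.89 and 10.1 ± 3.77 normalized counts, from 2 Control reads each.

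Several members encode inhibitors or adaptors of signalling. Rgcc, a regulator of the cell cycle that responds to complement, had the highest level of them. The Control libraries of Rgcc had 5.96, 6.49 and 4.78 normalized counts, and the G scaffold libraries had 145, 116 and 124. Both groups were tight, and the ratio was 22.4 (95% counting interval 13.8 to 38.9). Per kilobase of gene length Rgcc had the highest G scaffold mean of all members, 139.7 normalized counts per kilobase, ahead of 87.0 for Hbegf and 86.2 for Hist1h1a. Phlda1, a pleckstrin-homology-like protein induced by growth factors, had 4.97, 3.25 and 5.73 normalized counts in Control and 73.6, 89.7 and 71.5 in the G scaffold libraries. Dusp14, a dual-specificity phosphatase, rose from 3.35 ± 0.430 to 25.9 ± 4.82. Dusp27, placed here by its name and the same protein domain and not by a known activity, rose from 2.06 ± 1.15 to 35.6 ± 10.3. Smad7, the inhibitory SMAD of TGF-beta signalling, had 6.96, 16.2 and 12.4 normalized counts in Control and 33.3, 37.6 and 27.4 in the G scaffold libraries. It had the smallest ratio of all members, 2.76 (95% counting interval 1.88 to 4.22).

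Mapk12, a kinase of the p38 group, had 10.9, 6.49 and 8.60 normalized counts in Control and 24.2, 28.9 and 22.5 in the G scaffold libraries. Sh2d2a, an adaptor with an SH2 domain known from T cells, had 2 Control reads and 13.1, 16.4 and 12.7 normalized counts in the G scaffold libraries. Cish, a SOCS protein that inhibits cytokine receptors, had 1 Control read and 12.1, 1.93 and 16.6. G scaffold replicate 2 of Cish held 2 reads, so that this library was not clearly above Control. On a list of 20 genes of JAK-STAT feedback and cytokines, the table names 3, and 2 of these are the members Cish and Lif. On a list of 41 MAPK kinases and regulators it names 7, of which Mapk12 is a member, and every listed gene of both lists was higher in the G scaffold group, in a table where 82.6% of all genes were called higher.

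The ratios of the small GTPase genes ran from 2.84 to 150.3. Rasl11b, a Ras-like gene, had 1 Control read and 46.4, 53.1 and 49.9 normalized counts in the G scaffold libraries, with a G scaffold spread within 1.14-fold from the highest to the lowest library. Rnd3, which opposes contraction of the actin skeleton, had 0, 1.08 and 2.87 in Control and 17.1, 18.3 and 14.7 in the G scaffold libraries. Rhpn2, which encodes a GTPase-binding protein, had 2.98, 0 and 3.82 in Control and 59.5, 53.1 and 39.2 after extract, a ratio of 22.3 (95% counting interval 10.2 to 54.3). Rhobtb1 stayed low, with 2 Control reads and a G scaffold mean of 9.18 ± 4.81. Arl4d, a GTPase of the Arf family, was less faint in Control. The Control libraries of Arl4d had 9.94, 10.8 and 19.1 normalized counts, and the G scaffold libraries had 103, 76.2 and 79.3. Cdc42ep2, an effector of the GTPase Cdc42 that shapes the cell edge, had a ratio of only 2.84 (95% counting interval 2.01 to 4.21). On a list of GTPases and their regulators the table names 12 genes, 11 higher and 1 lower.

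The members that regulate transcription had Control means between 2.30 and 17.0. Id1, which blocks basic helix-loop-helix factors, had 7.95, 26.0 and 13.4 normalized counts in Control and 92.7, 56.0 and 105 in the G scaffold libraries. Its libraries were uneven in both groups, with a chi-square over degrees of freedom of 5.29 among the Control and 7.90 among the G scaffold libraries. Tfcp2l1, a factor of pluripotent cells and kidney tubules, had 22.9, 19.5 and 8.60 in Control and 59.5, 77.2 and 65.6 after extract, and its Control mean of 17.0 was the highest of all members. Snai1, a repressor of the E-cadherin gene, had 1.99, 1.08 and 3.82 in Control and 29.2, 29.9 and 16.6 after extract, a ratio of 11.0 (95% counting interval 4.97 to 27.6). Lbh and Samd11 rose to 18.3 ± 5.05 and 16.8 ± 4.23 normalized counts.

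**Figure D3:**
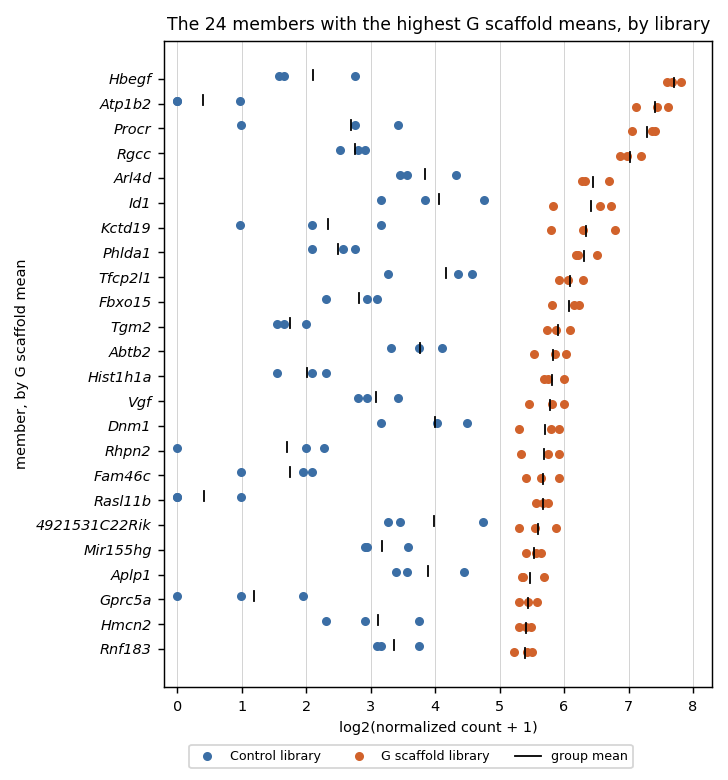
Values of every library, as log2(normalized count + 1), are shown for the 24 members with the highest G scaffold means (blue, Control; orange, G scaffold; black ticks, the log2(mean + 1) of each group). In each member the 3 orange points lie to the right of the 3 blue ones, and the blue points are the more widely spread on this scale.

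Of the cytoskeletal and membrane genes, Dnm1, the dynamin of synaptic endocytosis, had the highest level, with 7.95, 21.6 and 15.3 normalized counts in Control and 54.4, 38.6 and 59.7 in the G scaffold libraries. Dbn1, which encodes the actin-binding protein drebrin, had 3.97, 8.66 and 8.60 in Control and 30.2, 24.1 and 27.4 after extract. Lims2, a LIM protein of focal adhesions, and Epb41l1, of the band 4.1 family, rose to 31.2 ± 8.46 and 18.1 ± 4.63. Tubb3, the beta tubulin of neurons, had 1 Control read and 14.1, 14.5 and 2.94 normalized counts in the G scaffold libraries, so replicate 3 was near the Control level. Tubb3 was the 1 listed gene of 13 neuron markers. Tubulin genes are close in sequence, and reads could have been split between them. Txlnb, a muscle taxilin, and Dnah3, a dynein heavy chain of motile cilia, stayed below 10 normalized counts on average in the G scaffold group.

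Among the matrix genes, Mmp9, the gelatinase of macrophages and osteoclasts, had 1.99, 4.33 and 0.955 normalized counts in Control and 20.2, 16.4 and 16.6 in the G scaffold libraries. Timp1, an inhibitor of such metalloproteinases, had 5.96, 6.49 and 3.82 in Control and 19.2, 18.3 and 25.5 after extract. The ratio was 7.32 (95% counting interval 3.42 to 19.6) for the protease and 3.87 (95% counting interval 2.23 to 7.24) for the inhibitor. Col5a3, a collagen chain, and Hhipl2 each had 1 Control read, and their G scaffold libraries held 38.3, 26.0 and 24.5 and 31.3, 26.0 and 41.1 normalized counts. Hmcn2, a large matrix protein of the hemicentin family, had 3.97, 6.49 and 12.4 in Control and 41.3, 38.6 and 44.1 in the G scaffold libraries, and Vwa1 rose to 16.4 ± 4.23. Of 12 osteoclast markers the table names 4, of which Mmp9 was higher and the other 3 lower in the G scaffold group. Hpx, which encodes the heme-binding plasma protein hemopexin, and Rnase10 reached 8.92 ± 4.68 and 10.9 ± 7.14 normalized counts from 2 and 1 Control reads.

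Enzymes and lipid-handling proteins made up the largest group of members, 11 genes with ratios between 3.05 and 36.7. Tgm2, a transglutaminase that cross-links proteins and a marker of alternatively activated macrophages, had 2.98, 2.16 and 1.91 normalized counts in Control and 57.5, 52.1 and 67.6 in the G scaffold libraries. Its ratio was 25.1 (95% counting interval 11.9 to 63.3). Acer2, a ceramidase of the Golgi, had 3.97, 0 and 1.91 in Control and 35.3, 38.6 and 29.4 after extract. Glycerolipid synthesis was represented by Agpat9, an acyltransferase of its first step, with 7.95, 7.57 and 7.64 in Control and 29.2, 27.0 and 22.5 after extract, and by the monoacylglycerol acyltransferase gene Mogat1, with 0.994, 0 and 8.60 in Control and 16.1, 19.3 and 15.7 after extract. In Mogat1 a single library, Control replicate 3, held 9 of the 10 Control reads. Fabp4, a fatty acid carrier of fat cells and macrophages, had 2.98, 0 and 0 in Control and 9.07, 14.5 and 11.7 in the G scaffold libraries.

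Cyp11a1, the mitochondrial enzyme that begins steroid synthesis from cholesterol, had 2 Control reads and 37.3, 15.4 and 23.5 normalized counts in the G scaffold libraries, among which replicate 1 stood apart. Hao1, the glycolate oxidase known from liver, had 3.97, 3.25 and 1.91 in Control and 13.1, 20.3 and 25.5 in the G scaffold libraries. Gstt1, a glutathione transferase, had 2.98, 2.16 and 0 in Control and 19.2, 13.5 and 17.6 after extract. Ggt7, of the gamma-glutamyl transferase family, Tlcd2 and the hydrolase gene Cmbl had ratios of 3.05, 4.61 and 3.44, with Control means between 5.34 and 11.8. The G scaffold libraries of Cmbl were the closest together of any member, at 18.1, 19.3 and 17.6.

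Of the ubiquitin ligase and BTB genes, Kctd19, known from meiosis, reached the highest level, with 7.95, 3.25 and 0.955 normalized counts in Control and 54.4, 77.2 and 109.6 in the G scaffold libraries. Its G scaffold libraries were uneven, with a chi-square over degrees of freedom of 9.63, the highest of any member. Fbxo15, an F-box gene known from embryonic stem cells, had 3.97, 7.57 and 6.69 in Control and 70.6, 55.0 and 74.4 after extract. Abtb2 rose from 12.5 ± 3.65 to 55.6 ± 9.69, and Rnf183, a RING ligase of the endoplasmic reticulum, rose from 9.32 ± 2.70 to 40.9 ± 4.17. Trim38, a regulator of innate immune signalling, had 3 Control reads and 24.2, 8.68 and 10.8 normalized counts in the G scaffold libraries. The table names 8 genes that match the ubiquitin ligase name patterns, 6 higher and 2 lower.

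Genes better known from the germ line or from motile cilia formed a further group. Fam71f2 had 8.94, 7.57 and 8.60 normalized counts in Control and 49.4, 35.7 and 28.4 in the G scaffold libraries. Lrrc23, a protein of the sperm axoneme, had 2.98, 2.16 and 0.955 in Control and 26.2, 23.2 and 29.4 after extract, and Ccno, a cyclin of multiciliated cells, had 0, 1.08 and 0.955 in Control and 22.2, 20.3 and 17.6 after extract. Zan, the sperm protein zonadhesin, and Tex14, of the bridges between germ cells, rose to 13.8 ± 2.83 and 13.4 ± 2.72. The linker histone gene Hist1h1a had 3.97, 3.25 and 1.91 in Control and 50.4, 62.7 and 52.9 in the G scaffold libraries, and the core histone gene Hist1h4d had 5.96, 7.57 and 8.60 in Control and 23.2, 17.4 and 28.4 after extract. Core histone genes such as Hist1h4d are near-identical copies, so the split of reads among them is uncertain. Fam46c, a poly(A) polymerase gene, had 0.994, 3.25 and 2.87 in Control and 59.5, 41.5 and 48.9 after extract, while Glipr2, Fam171b, Ptchd2 and 1300017J02Rik had ratios of 3.62, 2.96, 30.8 and 37.8, the last 2 from 1 Control read each.

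**Figure D4:**
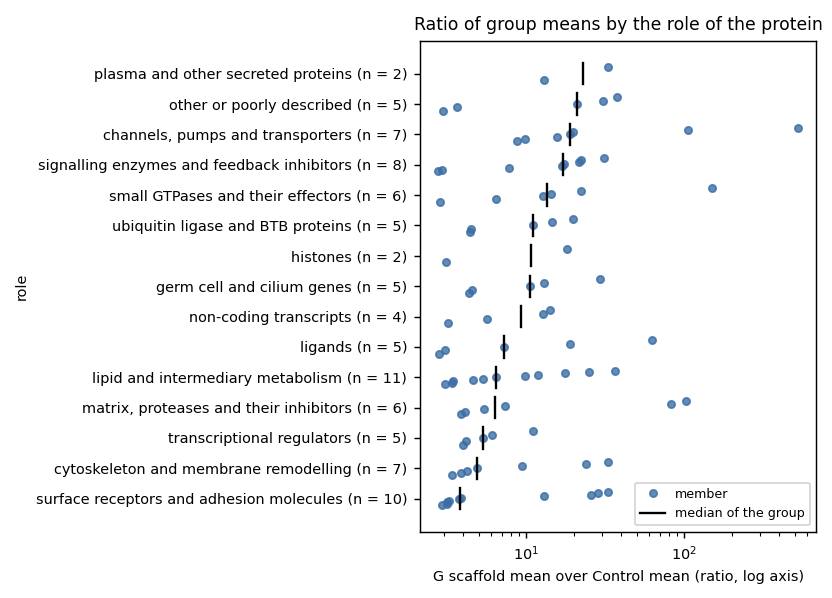
Each point is 1 of the 88 members, placed by the ratio of its G scaffold mean to its Control mean (log axis) and by the role of its product, and black ticks mark the median of each role. The medians run from 3.82 for surface receptors and adhesion molecules to 22.9 for the 2 plasma and other secreted proteins, and the roles overlap widely.

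Of the members, 84 are protein-coding, 2 are lincRNA genes and 2 are processed transcripts. Mir155hg, the host transcript of microRNA miR-155, which macrophages make on activation, had 10.9, 6.49 and 6.69 normalized counts in Control and 41.3, 46.3 and 48.9 in the G scaffold libraries. The ratio was 5.66 (95% counting interval 3.65 to 9.12). The microRNA itself was not measured. Its mature guide strand (RefSeq, GRCm38.p6, chromosome 16 from 84714143 to 84714165, plus strand) is printed to show which seed this host transcript carries, with bases 2 to 8 in capitals.
mmu-miR-155-5p: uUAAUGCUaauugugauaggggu
4921531C22Rik had 9.94, 8.66 and 25.8 in Control and 38.3, 57.9 and 46.0 in the G scaffold libraries, and its Control replicate 3 stood apart from the other two. BC028777 and E230001N04Rik had 3 Control reads each and reached 13.8 ± 1.22 and 12.5 ± 3.66 normalized counts.

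Some members lie side by side on the chromosome. In the coordinates of the table, 9 of the 88 members (10.2%) have another member within 100 kb, against 10 of the 107 better expressed induced genes (9.35%). Over all listed genes, a larger set, 52 of 345 (15.1%) have another listed gene within that distance. Dusp27 (chromosome 1 from 168305264 to 168334998, minus strand) and Gpa33 (from 168337317 to 168373677, plus strand) point away from each other with 2.32 kb between them. Both had few Control reads, and their G scaffold means were 35.6 ± 10.3 and 8.86 ± 1.75 normalized counts. Kctd19 (chromosome 8 from 104996460 to 105028243, minus strand) begins 0.068 kb from the listed gene Lrrc36, which runs the other way. No Control library held a read of Lrrc36, and its G scaffold values were 42.3, 35.7 and 25.5 for replicates 1, 2 and 3, while Kctd19 had its lowest value in replicate 1 and its highest in replicate 3. Both genes were higher in the G scaffold group, in opposite order among its libraries. The GENCODE M21 annotation of GRCm38 has both pairs in the same head-to-head order, with no protein-coding gene between them.

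Atp1b2 (chromosome 11 from 69497194 to 69503386) and Efnb3 (from 69445821 to 69451945) are both on the minus strand with 45.2 kb between them, yet their ratios were 528 and 2.82. BC028777 and Abca17 lie 43.9 kb apart on chromosome 17, with ratios of 14.1 and 19.0. On chromosome 13 the table places Hist1h4d, Hist1h1a and Trim38 within a stretch that also holds the listed genes Hist1h1c and Slc17a2. All 5 were higher in the G scaffold group. Hist1h1c had means of 1002 ± 60.3 and 2073 ± 99.1 normalized counts, and Slc17a2 was at 0 in Control with a G scaffold mean of 4.90. GRCm38 has Hist1h4d 181 kb from Hist1h1a with 15 protein-coding genes between them, where the table has 2.51 kb, so the annotations differ on which gene carries this name or where it lies.

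Promoter sequence was taken by gene name from RefSeq on GRCm38.p6, while the table's gene identifiers and coordinates are those of the SPRET/EiJ assembly. An entry exists for 66 of the 88 members (75%), which is below the 80% needed to describe the members as a set, so that check is void and only single promoters are shown. The 250 bases before the start are printed for the head-to-head pair Dusp27 and Gpa33, and for Procr, Rgcc, Arl4d and Tfcp2l1, which are the 4 with an entry among the 10 members with the highest G scaffold means. Of 11 motifs searched, capitals mark 5, namely the AP-1 site TGANTCA, the full cAMP response element TGACGTCA, the TATA box TATAAA, the metal response element TGCACNC or TGCGCNC and the CArG box, on either strand. These occur in 6.75%, 1.55%, 12.4%, 21.4% and 1.47% of 32851 promoter windows of the same length.
Dusp27, chr1:166127899-166128148, minus strand: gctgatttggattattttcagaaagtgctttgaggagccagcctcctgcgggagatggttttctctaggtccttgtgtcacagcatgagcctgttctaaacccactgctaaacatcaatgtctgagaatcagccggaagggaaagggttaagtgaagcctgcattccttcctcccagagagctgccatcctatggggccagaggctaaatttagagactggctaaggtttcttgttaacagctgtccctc
Gpa33, chr1:166129971-166130220, plus strand: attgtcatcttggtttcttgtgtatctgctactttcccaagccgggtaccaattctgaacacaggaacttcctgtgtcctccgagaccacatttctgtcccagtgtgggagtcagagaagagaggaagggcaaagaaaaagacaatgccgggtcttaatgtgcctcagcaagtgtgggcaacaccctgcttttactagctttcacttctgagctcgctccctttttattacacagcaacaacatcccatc
Procr, chr2:155750967-155751216, plus strand: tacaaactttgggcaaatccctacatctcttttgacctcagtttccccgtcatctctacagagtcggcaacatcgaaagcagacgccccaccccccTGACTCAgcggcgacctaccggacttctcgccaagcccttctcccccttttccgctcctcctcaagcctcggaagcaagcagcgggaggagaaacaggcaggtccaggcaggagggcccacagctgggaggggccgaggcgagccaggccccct
Rgcc, chr14:79301636-79301885, minus strand: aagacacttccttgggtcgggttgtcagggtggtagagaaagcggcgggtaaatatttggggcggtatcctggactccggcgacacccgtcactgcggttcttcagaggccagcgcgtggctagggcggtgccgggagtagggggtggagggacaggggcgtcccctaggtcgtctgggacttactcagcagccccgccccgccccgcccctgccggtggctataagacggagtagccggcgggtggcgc
Arl4d, chr11:101665291-101665540, plus strand: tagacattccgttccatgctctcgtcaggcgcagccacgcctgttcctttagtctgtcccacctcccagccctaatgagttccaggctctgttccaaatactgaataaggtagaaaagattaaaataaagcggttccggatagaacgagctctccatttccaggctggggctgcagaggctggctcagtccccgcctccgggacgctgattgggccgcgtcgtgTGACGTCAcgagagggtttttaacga
Tfcp2l1, chr1:118627695-118627944, plus strand: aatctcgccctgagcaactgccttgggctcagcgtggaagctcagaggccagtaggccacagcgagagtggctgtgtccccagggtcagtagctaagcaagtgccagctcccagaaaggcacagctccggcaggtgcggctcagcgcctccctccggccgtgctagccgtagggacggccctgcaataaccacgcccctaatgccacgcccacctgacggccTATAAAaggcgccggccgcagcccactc
The Procr window holds 1 AP-1 match, whose first base lies 154 bases before the start. The Arl4d window holds 1 full cAMP response element, 26 bases before the start, and the Tfcp2l1 window holds a TATA box 28 bases before it. The other 6 motifs were not drawn in capitals. They were the short cAMP response element TGACG (17.8% of all windows), the antioxidant response element TGANNNNGC (35.2%), the hypoxia response core ACGTG (16.6%), the EGR site GCGNGGGCG (4.70%), the heat shock element (0.466%) and the NF-kB site (3.90%). Of these 6, the short cAMP response element lies in the Procr window 203 bases before the start, in that of Rgcc at 163, in that of Tfcp2l1 at 36 and in that of Arl4d at 228 and, on both strands, within the full element. The antioxidant response element lies in the Gpa33 window at 42 bases before the start, in that of Arl4d at 72 and 44 and in that of Procr at 154, where it overlaps the AP-1 match. The Dusp27 window holds none of the 11 motifs. None of the 5 motifs in capitals is in the Dusp27, Gpa33 or Rgcc window, and none of the 6 windows holds the metal response element. A match is a run of letters in the reference and was not tested for binding.

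Within the G scaffold group most members were steady. The highest library exceeded the lowest by a median of 1.48-fold, and the median chi-square over degrees of freedom was 1.21. The 142 other listed genes in the same range of G scaffold means had a median of 1.11. In 12 members the value was above 3 in the G scaffold group, and in 11 members it was above 3 in Control. The widest spread belonged to Cish, at 8.63-fold, followed by Rnase10, Tubb3 and Lif at 5.75-fold, 4.93-fold and 4.27-fold, and these 4 are the members with a G scaffold library of 3 reads or fewer. No single library carried the group. G scaffold replicates 1, 2 and 3 were the highest library of their group in 30, 31 and 27 members.

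**Figure D5:**
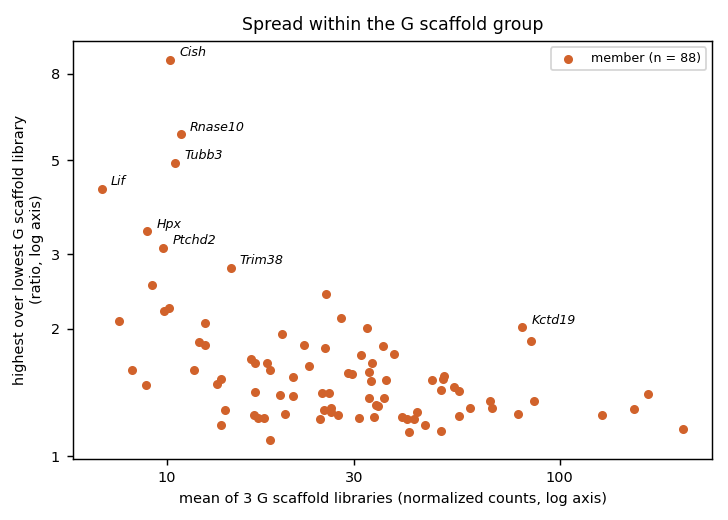
Each point is 1 of the 88 members, with its G scaffold mean on the x axis (normalized counts, log axis) and the ratio of its highest to its lowest G scaffold library on the y axis (log axis). The spread is widest at low means, up to 8.63-fold for Cish, while Kctd19 has a ratio of 2.01 at a mean of 80.4.

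The gene lists place few members in named programmes. None of the members is on the metal handling, NRF2, heat shock, integrated stress response, hypoxia, p53 or interferon lists, of which 4, 3, 3, 6, 2, 4 and 6 genes are listed in the table, all higher in the G scaffold group. Genes of several of these lists were set apart by name when the members were chosen, so their absence here is no result. The immediate-early list holds 5 members (Hbegf, Phlda1, Vgf, Dusp14 and Lif) among 23 listed genes of 65, all 23 higher. The list of cytokines and growth factors holds 3 members (Hbegf, Cxcl14 and Lif) among 12 listed genes of 90, all higher, and that of their receptors holds Tnfrsf9 among 4 of 79. On the list of alternative macrophage activation, 4 of 25 genes are listed and 2 are the members Tgm2 and Stab1. All of these counts stand against a table in which 82.6% of the genes were called higher.

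The exons of 23 members overlap those of another gene in GENCODE M21, mostly on the opposite strand. Among these members are Kctd19, Phlda1, Tfcp2l1, Tgm2, Rhpn2 and Dsp. Whether the authors counted by strand is not given in the sources used here, so reads of the overlapping genes may be included in these values. Tfcp2l1, Mir155hg, Cyp11a1 and Tlcd2 overlap a gene on the same strand, Mir22hg in the case of Tlcd2. Counting by strand would not separate those reads.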

How the data were processed

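Total RNA of 3 Control and 3 G scaffold libraries of RAW264.7 cells was sequenced, and the authors deposited 1 table of 345 genes, which holds only genes past their own thresholds. The signal used here is the normalized read count per gene and library, which the authors made by dividing reads by 1 size factor per library. Whole reads were recovered from these values in all 6 libraries (100% of values within 0.001 of a whole read). The deposited log2 fold changes, p-values and adjusted p-values are the authors' own comparison and were not used. The aligner and whether reads were counted by strand are not given in the sources used here. The submitters' processing notes name GRCm38 and mm10, while the gene identifiers of 329 listed genes, all 88 members among them, are those of the SPRET/EiJ assembly, and none of the 85 members found in GENCODE M21 has its coordinates there. Positions are therefore given as deposited, unless GRCm38 is named.

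The members and gene lists were chosen with earlier results of these data known. The roles of the members and 3 of the alternatives were set after their values were seen. The values of every library were compared between replicates, and all libraries of a group differed by more than counting error (chi-square over degrees of freedom of 2.79 to 7.90). Log2(normalized count + 1) was fitted with limma (3.58.1, R 4.3.3) over all 345 genes with Benjamini-Hochberg adjustment, without a replicate block. A gene counted as called where the adjusted p-value was 0.05 or less and the log2 fold change was 1 or more. The recovered reads were also fitted with DESeq2 (1.42.0) and with the quasi-likelihood test of edgeR (4.0.16). All 3 were tested on simulated data. The simulated baselines were gene means over all 6 libraries, which lie above the members' Control means, so the faint Control levels of the members were not reproduced. The simulated spread between libraries was a fixed setting for all genes and was not taken from these libraries. The simulation therefore does not show how the fits behave on the members. Ratios are of group means, with exact (Clopper-Pearson) 95% intervals from the read totals, which cover counting error only. Genes were named by rule as the 10 members with the highest G scaffold means, the 10 with the largest log2 fold change among members with over 3 reads in a Control library, those nearest the cut and those on a gene list. The other members were added by role after their values were seen. Low counts limit the precision of the Control values, at 399 to 448 member reads per library.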

Additional observations from a re-analysis of the deposited data

How the results depend on the processing

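Of the 345 listed genes, 287, 287 and 285 were called higher with edgeR, DESeq2 and a pseudocount of 0.1. The count of 88 members called higher was 88 in each of these. Under TMM factors from the listed genes it was 51, and it was 56 when those factors left the members out, an alternative chosen after seeing the data, where 135 and 147 of the 345 listed genes were called, against 285. Such factors assume that most listed genes did not change, and the median log2 fold change of the listed genes moved from 1.87 to 0.48 and 0.76. The count of members was 77 with column totals over either set of genes, against 191 of the 345 listed genes. It was 65 with a pseudocount of 10, which lowers faint genes most, against 194. With a mean of at least 10 it was 64 of the 64 tested, against 209 of 264. It was 83 at a log2 fold change of at least 1.5, against 206 of 345. At an adjusted p-value threshold of 0.01 it was 84, against 278. Leaving out each library in turn gave 87 to 88, against 276 to 283 of the 345 listed genes, and Dsp was the member lost. No member had a log2 fold change below 0 in these fits, but the direction was part of the choice.

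The number of members was 67 with the lowest library below 5, 112 below 20, 85 below 10 recovered reads and, chosen after seeing the data, 76 with a Control mean below 10. It ranged from 74 to 88 when a library was left out, and was lowest without Control replicate 3. Whether the replicate numbers pair the libraries is not stated in the labels. The correlations of same-numbered deviations were 0.0047, -0.035 and -0.071 over 345 genes, and those of other-numbered deviations ran from -0.055 to 0.089. With 3 libraries per group these values cannot settle whether the libraries are paired. With a replicate block 88 members were called, against 284 of the 345 listed genes, and this count does not bear on the pairing. Control reads, 1 to 50 per member, limit the precision of the ratios.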
